A study of Haemulon flavolineatum and Haemulon macrostomum and Haemulon carbonarium with 36 samples.

Results

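Liver expression was compared between 8 *H. carbonarium* and 11 *H. flavolineatum*, Caribbean grunts that school together on shallow reefs, using 19 of the 36 fish of the series. The *H. flavolineatum* were chosen by their own data: 6 of the 17 fish had vitellogenin counts, summed over 7 isogroups, above 10000 CPM (counts scaled to a common library size) and were left out. Vitellogenin is the yolk precursor that the liver of a maturing female secretes, so the rule set aside the 6 livers with by far the most of it. The 8 *H. carbonarium* had 11.5 to 87.4 CPM of vitellogenin (median 23.1). The kept *H. flavolineatum* had 11.2 to 1774 CPM (median 30.6), with fish 11 at 1774 CPM and fish 2 at 535 CPM, while the 6 left out had 30623 to 51364 CPM.

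The fish were wild, speared on reefs of the Bocas del Toro Archipelago of Panama over 2 days, and received no treatment. Their sex and age were not recorded in the labels, and the study's methods state that the gonads were undeveloped. A TagSeq library, which samples the 3′ ends of messenger RNAs, was made from the liver of each fish, and its tags were counted per isogroup, a cluster of isoforms of the *H. macrostomum* liver transcriptome. *H. macrostomum*, the remaining species of the series, is held to be the sister species of *H. carbonarium*, so the reference was not equally distant from the species compared, and how far this moved a level was not tested.

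The liver makes most plasma proteins, turns cholesterol into bile acids, oxidizes fatty acids and clears foreign compounds. Bile acid synthesis shortens and hydroxylates cholesterol through a chain of enzymes in the endoplasmic reticulum, mitochondria and peroxisomes, and the nuclear receptor FXR senses the product and acts through the repressor SHP. Secreted complement, pentraxins, lectins and protease inhibitors form much of the innate defense and clotting system of fish blood.

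Library totals were 722995 to 1930321 counts in *H. carbonarium* and 578011 to 2282306 counts in *H. flavolineatum*, with means of 1474560 in *H. carbonarium* and 1502770 in *H. flavolineatum* (difference -28205, two-sided exact permutation test, p = 0.905). Hepatocyte marker proteins summed to 52146 to 78952 CPM in *H. carbonarium* and 43823 to 69085 CPM in *H. flavolineatum*, so that liver markers were abundant in every fish. By the correlation of log2 levels, each of the 19 fish was closest to a fish of its own species. *H. carbonarium* 4 and 5 were each other's closest fish (r = 0.882), though other pairs were more alike, such as *H. carbonarium* 7 and 8 (0.913). *H. carbonarium* 4 and *H. flavolineatum* 17 had the lowest mean correlation with their own species, at 0.766 and 0.804. Exocrine pancreas enzymes, which can be cut with fish liver, were on average higher in *H. carbonarium*, by 1.26 on the log2 scale.

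Of 6791 isogroups with enough counts, 817 were differentially expressed (DEGs) at an adjusted p under 0.01 (edgeR's quasi-likelihood test with Benjamini-Hochberg adjustment), which is 12%. There were 434 higher in *H. carbonarium* (6.39%) and 383 lower (5.64%), and the median log2 fold change of all tested isogroups was -0.01. Log2 fold changes here are *H. carbonarium* over *H. flavolineatum*, and stand in parentheses after the levels with their standard error and adjusted p. Levels are CPM scaled between libraries by TMM. Among the DEGs the median size of the difference was 1.69 on the log2 scale, 322 differed by more than 4-fold, and 244 had levels that did not overlap between the species, against 245 (3.61%) of all tested isogroups. The count filter asked for 8 fish above its cutoff. An isogroup near 0 in *H. flavolineatum* thus passed only if all 8 *H. carbonarium* cleared the cutoff, so its lack of overlap was set by the filter. One near 0 in *H. carbonarium* needed only 8 of the 11 *H. flavolineatum*, so the filter treated the directions unequally. The count of DEGs depended on the count filter. Without it edgeR called 2564 of 52877 isogroups, 636 of them among the 817. DESeq2 without a count filter before the fit called 2140 of the 58532 isogroups in the count table, 813 of them among the 817. Its own default filter on mean count was on, and the 58532 include isogroups without counts in these fish, so not all of them could be called. List totals given with DESeq2 below are likewise all isogroups of the list in the count table. An unadjusted p under 0.05 was reached by 2181 of the 6791 tested isogroups. For named isogroups alone, neither that share nor the share called by DESeq2 is given here. A protein name was at hand for 1113 tested isogroups, and 343 of these were DEGs (30.8%). Higher in *H. carbonarium* were 14.9% of named isogroups and lower 15.9%, and 10.2% had levels that did not overlap. Most names came from the study's own list of isogroups called in its contrasts, where the share was 35.8%, against 2.42% of isogroups named only elsewhere and 8.35% of those without a name. The share within a list of proteins is therefore set beside 30.8%, not only beside 12%. In every list with tested isogroups most names came from the study's list, so 35.8% is a further comparator. In the ribosomal and nuclear respiratory lists fewer names did (17 of 28 and 17 of 25). Both shares are therefore too high a comparator for these lists.

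**Figure D1:**
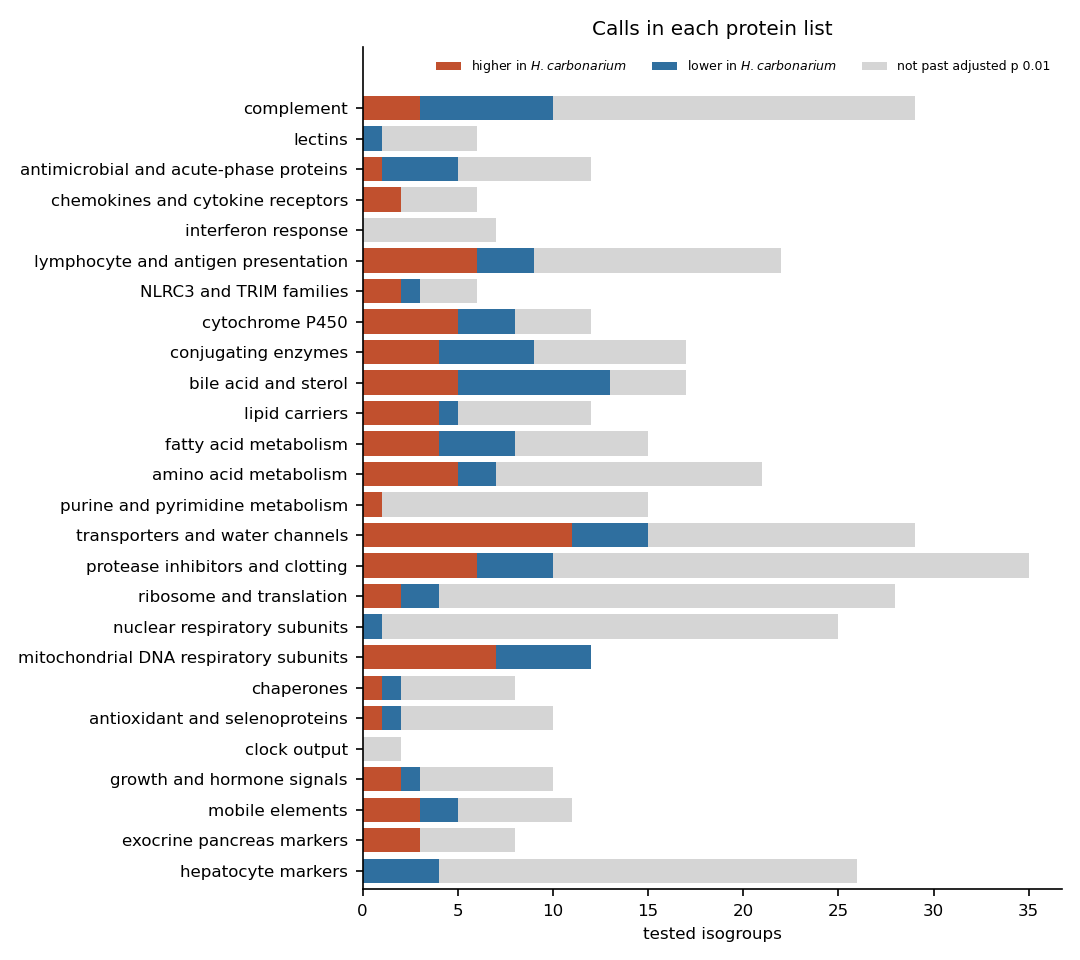
Number of tested isogroups in each protein list (horizontal axis) that were higher in *H. carbonarium*, lower in *H. carbonarium* or not past an adjusted p of 0.01, over 8 *H. carbonarium* and 11 *H. flavolineatum*. The bile acid and sterol list has 13 of 17 isogroups called, the subunits encoded in mitochondrial DNA 12 of 12 and the nuclear respiratory subunits 1 of 25. The study's own list of called isogroups named all 12 of the former subunits and 17 of the 25 nuclear ones.

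The bile acid and sterol list differed in most of its members. Of 17 tested isogroups, 5 were higher and 8 lower in *H. carbonarium* (76.5% called, against 30.8% of named isogroups), with a median log2 fold change of -0.33. The study's list of called isogroups, with a share of 35.8%, named 16 of the 17. Sterol 12-alpha-hydroxylase, sterol 26-hydroxylase, FXR and 1 isogroup of the receptor NR5A2 were higher. The steroid reductase, the peroxisomal thiolase, the conjugating enzyme and SHP were lower, and acyl-CoA synthetases were called in both directions.

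7-alpha-hydroxycholest-4-en-3-one 12-alpha-hydroxylase, the enzyme that commits an intermediate to cholic acid, had 39.2, 82.7 and 182 CPM in *H. carbonarium*, against 0, 2.37 and 5.96 CPM in *H. flavolineatum* (lowest, median and highest fish), and the log2 fold change was 5.01 ± 0.40, adjusted p = 4.05e-09. Every *H. carbonarium* lay above every *H. flavolineatum*, and *H. carbonarium* 3 was the highest. Mitochondrial sterol 26-hydroxylase, which starts the oxidation of the sterol side chain, had 29.4, 48.6 and 69.2 CPM in *H. carbonarium*, against 2.45, 4.45 and 12.6 CPM in *H. flavolineatum* (3.04 ± 0.29, adjusted p = 4.33e-08). Its ranges did not overlap either. Cholesterol 24-hydroxylase, which in mammals opens a separate route of cholesterol removal, was not called, at 6.07 to 45.7 CPM (median 16.5) in *H. carbonarium* and 1.43 to 24.4 CPM (median 6.24) in *H. flavolineatum* (log2 fold change 1.35 ± 0.40, adjusted p = 0.0177).

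Acyl-CoA synthetases activate very long-chain fatty acids and bile acid intermediates. The isogroup named solute carrier family 27 member 2 had 26.9, 85.8 and 115 CPM in *H. carbonarium*, against 0, 0 and 4.72 CPM in *H. flavolineatum* (6.44 ± 0.53, adjusted p = 5.98e-09). An isogroup named very long-chain acyl-CoA synthetase, another name of the same protein, was lower, with 91.4, 164 and 292 CPM in *H. carbonarium*, against 229.9, 772 and 1145 CPM in *H. flavolineatum* (-2.0 ± 0.29, adjusted p = 2.74e-05). A further, low isogroup of that name was also lower (-2.89 ± 0.47, adjusted p = 0.0001). Summed over the 3 isogroups the level was 163 to 388 CPM (median 249) in *H. carbonarium* and 237 to 1163 CPM (median 779) in *H. flavolineatum*, so the sum did not follow the direction of the first isogroup.

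3-oxo-5-beta-steroid 4-dehydrogenase, the reductase that shapes the A ring of bile acids, was lower in both of its isogroups. The first had 34.3, 65.6 and 126 CPM in *H. carbonarium*, against 186, 278 and 336 CPM in *H. flavolineatum* (-1.95 ± 0.25, adjusted p = 4.87e-06), and its ranges did not overlap. The second, at 52.9 to 148 CPM (median 87.98) in *H. carbonarium* and 145 to 298 CPM (median 175) in *H. flavolineatum*, differed by -1.10 ± 0.21, adjusted p = 0.000491. NLTP, the non-specific lipid-transfer protein whose long form is a peroxisomal thiolase that cuts the side chain, had 21.7, 27.6 and 48.97 CPM in *H. carbonarium*, against 79.8, 109.7 and 175 CPM in *H. flavolineatum* (-2.01 ± 0.21, adjusted p = 1.83e-07), again with no overlap. Bile acid-CoA:amino acid N-acyltransferase, which joins bile acids to taurine or glycine, was lower as well, at 2.45 to 21.6 CPM (median 8.24) in *H. carbonarium* and 11.8 to 54.00 CPM (median 26.8) in *H. flavolineatum* (-1.74 ± 0.35, adjusted p = 0.000846).

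FXR, the bile acid receptor, was higher in *H. carbonarium*, with 23.9, 27.7 and 58.8 CPM in *H. carbonarium*, against 9.82, 17.6 and 21.1 CPM in *H. flavolineatum* (0.93 ± 0.20, adjusted p = 0.00162), and every *H. carbonarium* exceeded the highest *H. flavolineatum*. SHP, the small heterodimer partner that FXR induces in mammals, was lower, with 4.90, 8.77 and 18.8 CPM in *H. carbonarium*, against 14.3, 26.5 and 65.03 CPM in *H. flavolineatum* (-1.63 ± 0.34, adjusted p = 0.0014), and its ranges overlapped. Of the isogroups of NR5A2, the receptor that SHP restrains, isogroup2620 was higher (0.71 ± 0.18, adjusted p = 0.00805) and isogroup24 was not called (0.82 ± 0.23, adjusted p = 0.0133). The bile acid exporter subunits of the basolateral membrane also differed from each other, with organic solute transporter beta lower (-0.70 ± 0.19, adjusted p = 0.0094) and alpha not called (0.77 ± 0.26, adjusted p = 0.0421).

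**Figure D2:**
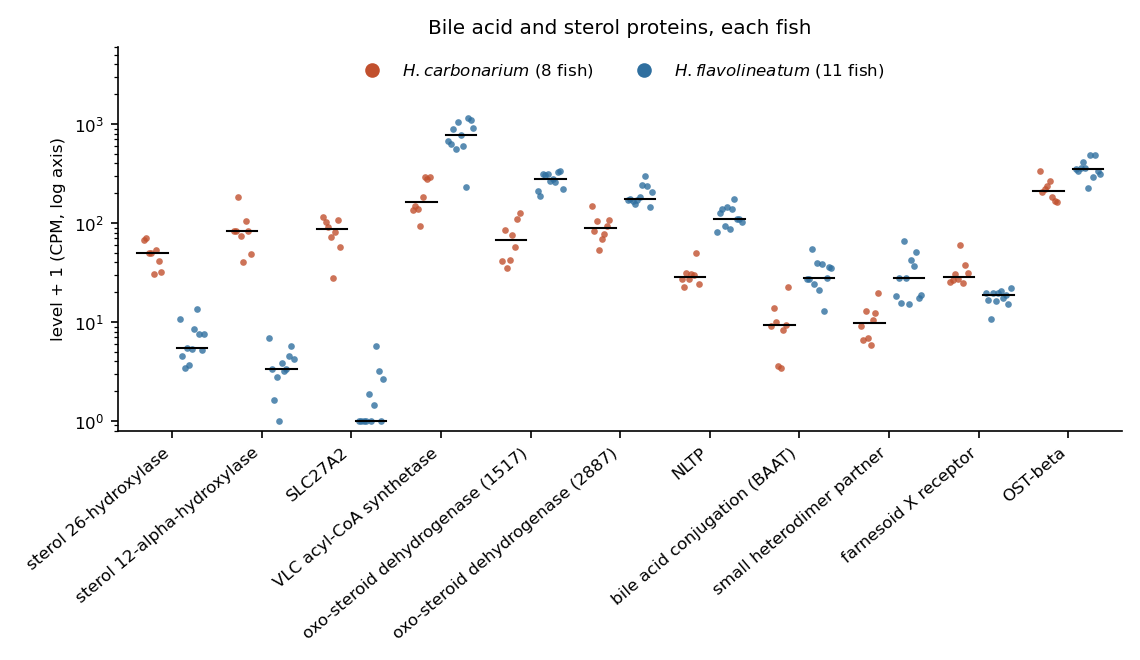
Level plus 1 in CPM (vertical log axis) of 11 isogroups of bile acid and sterol metabolism in each fish, 8 *H. carbonarium* left of 11 *H. flavolineatum*, with a line at the median. The sterol 26-hydroxylase of *H. carbonarium* starts at 29.4 CPM, above the highest *H. flavolineatum* at 12.6 CPM, while SHP overlaps between the species.

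In fatty acid metabolism 4 of 15 tested isogroups were higher and 4 lower (53.3% called, against 30.8% of named isogroups, median log2 fold change -0.06). Peroxisomal acyl-coenzyme A oxidase 3, which begins the breakdown of branched-chain fatty acids, had 9.79, 50.1 and 83.95 CPM in *H. carbonarium*, against 0, 0.879 and 3.94 CPM in *H. flavolineatum* (5.33 ± 0.44, adjusted p = 5.82e-09). The peroxisomal bifunctional enzyme enoyl-CoA hydratase/3-hydroxyacyl-CoA dehydrogenase, another enzyme of peroxisomal beta-oxidation, had 25.4, 36.2 and 57.96 CPM in *H. carbonarium*, against 126, 198 and 254 CPM in *H. flavolineatum* (-2.24 ± 0.21, adjusted p = 3.23e-08). Neither pair of ranges overlapped, and their directions were opposite. Acyl-coenzyme A thioesterase 4, which releases fatty acids from coenzyme A, was also lower without overlap, at 61.2 to 239 CPM (median 138) in *H. carbonarium* and 257 to 482 CPM (median 383) in *H. flavolineatum* (-1.48 ± 0.23, adjusted p = 4.87e-05). Fatty acid binding protein 1, the abundant carrier of the hepatocyte cytosol, was higher, at 158 to 514 CPM (median 315) in *H. carbonarium* and 51.97 to 255 CPM (median 133) in *H. flavolineatum* (1.31 ± 0.29, adjusted p = 0.00242). The number of higher calls in this list was not stable, ranging from 2 to 5 when each fish was left out in turn, and it was 2 without *H. carbonarium* 6, 7 or 8 or *H. flavolineatum* 4, 9 or 17.

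Enzymes that oxidize foreign compounds, the cytochrome P450s, were higher in 5 and lower in 3 of 12 tested isogroups (66.7% called, against 30.8% of named isogroups, median log2 fold change 0.44). Of 3 tested isogroups of CYP2J2, in mammals an epoxygenase of fatty acids, 2 were higher. Isogroup333 had 96.2, 127 and 167 CPM in *H. carbonarium*, against 0.396, 3.96 and 18.1 CPM in *H. flavolineatum* (4.68 ± 0.49, adjusted p = 2.36e-07), and isogroup848 was higher at lower levels (5.21 ± 0.53, adjusted p = 1.62e-07). CYP2W1 had 38.4, 82.7 and 149 CPM in *H. carbonarium*, against 0.396, 9.23 and 16.4 CPM in *H. flavolineatum* (3.26 ± 0.38, adjusted p = 1.11e-06). The levels of these 3 isogroups did not overlap between the species. The remaining CYP2J2 isogroup, isogroup1147, was not called (0.90 ± 0.40, adjusted p = 0.125), and over the name CYP2J2 summed to a median of 163 CPM in *H. carbonarium* and 14.3 CPM in *H. flavolineatum* (3.40 ± 0.26, adjusted p = 1.84e-09).

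CYP26C1, which breaks down retinoic acid, varied widely within *H. carbonarium*, with 48.2, 386 and 924 CPM in *H. carbonarium*, against 0, 2.22 and 95.3 CPM in *H. flavolineatum* (5.23 ± 0.90, adjusted p = 0.000193). *H. carbonarium* 1, 2 and 3 were at 809, 924 and 815 CPM and *H. carbonarium* 4 and 5 at 68.5 and 48.2 CPM, and *H. flavolineatum* 11 lay above both of these with 95.3 CPM. CYP3A40, of the family that metabolizes many drugs and steroids, was higher by a smaller margin, at 21.7 to 53.3 CPM (median 36.2) in *H. carbonarium* and 12.6 to 23.1 CPM (median 14.6) in *H. flavolineatum* (1.20 ± 0.21, adjusted p = 0.000171). CYP2K1 was lower without overlap (-2.54 ± 0.36, adjusted p = 1.39e-05), and CYP2G1 (-1.49 ± 0.29, adjusted p = 0.000814) and CYP2F3 (-1.0 ± 0.21, adjusted p = 0.00154) were lower with overlap.

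Conjugating enzymes, which attach sugar, sulfate or glutathione to compounds for excretion, were higher in 4 and lower in 5 of 17 tested isogroups (52.9% called, against 30.8% of named isogroups, median -0.05). UDP-glucuronosyltransferase 2B4 had 1.96, 5.63 and 10.6 CPM in *H. carbonarium*, against 154, 336 and 470.4 CPM in *H. flavolineatum* in isogroup473 (-5.69 ± 0.36, adjusted p = 1.12e-10), among the widest gaps of the comparison. Its other isogroup was not called (0.36 ± 0.37, adjusted p = 0.565), and the sum was 17.98 to 46.5 CPM (median 32.1) in *H. carbonarium* and 184 to 487 CPM (median 357) in *H. flavolineatum* (-3.45 ± 0.23, adjusted p = 3.63e-10). UDP-glucuronosyltransferase 2A1, from the same family, went the other way, in isogroup230 (5.48 ± 0.39, adjusted p = 6.82e-10) and in isogroup93 (1.89 ± 0.33, adjusted p = 0.000209), with a sum that differed by 2.58 ± 0.31, adjusted p = 1.67e-06. UDP-glucuronosyltransferase 1-1, the bilirubin-conjugating enzyme of mammals, was lower, at 6.07 to 19.6 CPM (median 14.2) in *H. carbonarium* and 36.7 to 65.04 CPM (median 52.6) in *H. flavolineatum* in isogroup26 (-1.86 ± 0.20, adjusted p = 2.75e-07), and isogroup1005 of that name was lower too (-2.74 ± 0.38, adjusted p = 1.06e-05). An isogroup named sulfotransferase had 166, 214 and 277 CPM in *H. carbonarium*, against 454, 672 and 972 CPM in *H. flavolineatum* (-1.68 ± 0.19, adjusted p = 5.16e-07). The ranges of the sulfotransferase did not overlap. Glutathione S-transferase theta 1b was higher (1.38 ± 0.30, adjusted p = 0.00178) and Mu 3 was lower (-1.79 ± 0.40, adjusted p = 0.00232).

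All 12 tested isogroups named as respiratory subunits encoded in mitochondrial DNA were DEGs, 7 higher and 5 lower in *H. carbonarium* (median log2 fold change 1.64), and 9 of the 12 had ranges that did not overlap. Of all named isogroups 30.8% were DEGs and 10.2% did not overlap. All 12 took their names from the study's own list of called isogroups, where the share of DEGs was 35.8%. Of the 25 tested nuclear-encoded subunits 1 was a DEG (4%, median -0.13), a low isogroup named mitochondrial ATP synthase subunit s, at 0 to 2.10 CPM (median 1.64) in *H. carbonarium* and 3.25 to 15.7 CPM (median 7.91) in *H. flavolineatum* (-2.77 ± 0.44, adjusted p = 7.02e-05). The subunits of both lists sit together in the complexes of the inner mitochondrial membrane. In the nuclear list 17 of the 25 names came from the study's list of called isogroups, so the shares of these lists are not directly comparable.

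ATP synthase subunit a, part of the proton channel, was counted in a pair of isogroups. Isogroup4021 had 1144, 1484 and 2928 CPM in *H. carbonarium*, against 16.03, 34.98 and 57.5 CPM in *H. flavolineatum* (5.52 ± 0.30, adjusted p = 1.54e-11), and isogroup43821 had 13.1, 258 and 397 CPM in *H. carbonarium*, against 1189.5, 1800.0 and 3424 CPM in *H. flavolineatum* (-3.0 ± 0.44, adjusted p = 3.04e-05). Each *H. carbonarium* had more of isogroup4021 than of isogroup43821, and each *H. flavolineatum* had less. Summed, the levels were 1336 to 2994 CPM (median 1743) in *H. carbonarium* and 1237 to 3459 CPM (median 1818) in *H. flavolineatum* (0.02 ± 0.21, adjusted p = 0.965). The 3 isogroups named cytochrome c oxidase subunit 2 were nearly absent from *H. carbonarium* counts, with 1, 1 and 2 counts over 8 fish. They were low in *H. flavolineatum* too, with a sum of 25.8 to 105 CPM (median 65.6). Most isogroups had no name, so other transcripts of this subunit may have been counted without one. The values hold for these isogroups only. In *H. flavolineatum* the same isogroups had 366, 342 and 387 counts over 11 fish, a ratio of pooled levels of 224-fold (95% counting interval 39.9 to 8854) for isogroup39741, 208.9-fold (37.2 to 8275) for isogroup38883 and 118-fold (32.5 to 979) for isogroup39074.

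NADH-ubiquinone oxidoreductase chains 1, 2, 3 and 4, core subunits of complex I, were higher in *H. carbonarium*. Summed over isogroups of the same name, chain 1 had 278 to 1683 CPM (median 1110.3) in *H. carbonarium* and 83.7 to 374 CPM (median 266) in *H. flavolineatum* (2.14 ± 0.32, adjusted p = 4.05e-05). Chain 2 was higher on the same basis (1.88 ± 0.24, adjusted p = 4.49e-06). Chain 3 (1.64 ± 0.25, adjusted p = 3.8e-05) and chain 4 (1.70 ± 0.30, adjusted p = 0.000229) had a single isogroup each. Cytochrome c oxidase subunit 3 was lower, with 375, 1947 and 3685 CPM in *H. carbonarium*, against 2403, 5095 and 7714 CPM in *H. flavolineatum* (-1.31 ± 0.35, adjusted p = 0.00881). Reads of a species can fall on different isogroups of a gene because its sequence differs from the reference, and from these counts that and a difference in the amount of mRNA cannot be told apart.

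The same question touches 70 protein names held by at least 2 tested isogroups. Of these names 49 had a DEG, and 30 of the 49 were past the threshold when the counts of their isogroups were summed. For 5 names, ATP synthase subunit a, apolipoprotein B-100, C1q protein, cystatin and GTPase IMAP family member 4, isogroups were called in opposite directions, and 0 of the 5 sums were called by edgeR's quasi-likelihood test, with 1 of them at an unadjusted p under 0.05 (DESeq2 was not run on the sums). Apolipoprotein B-100, the structural protein of low-density lipoproteins, was higher in isogroup4685 (2.14 ± 0.29, adjusted p = 8.1e-06) and lower in isogroup701 (-1.90 ± 0.26, adjusted p = 1.22e-05), while its sum over 7 isogroups was 40.2 to 154 CPM (median 99.8) in *H. carbonarium* and 81.3 to 148 CPM (median 114) in *H. flavolineatum* (-0.19 ± 0.21, adjusted p = 0.597). Cystatin, an inhibitor of cysteine proteases, was higher in isogroup3320 (1.24 ± 0.16, adjusted p = 4.58e-06) and lower in isogroup3254 (-0.83 ± 0.18, adjusted p = 0.00216), with a sum that was not called (-0.22 ± 0.14, adjusted p = 0.319).

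**Figure D3:**
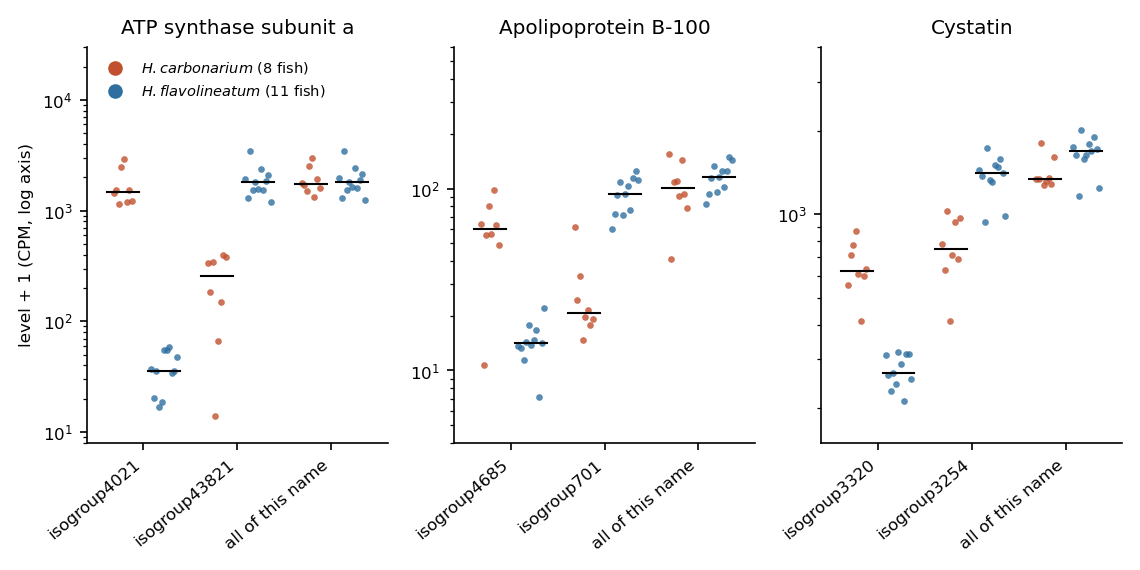
Level plus 1 in CPM (vertical log axis) per fish of the isogroups that share the names ATP synthase subunit a, apolipoprotein B-100 and cystatin, and of their sums, with *H. carbonarium* left of *H. flavolineatum* and a line at the median. Single isogroups separate the species in opposite directions and the sums overlap, as for ATP synthase subunit a at 1336 to 2994 CPM and 1237 to 3459 CPM.

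Complement, the plasma cascade that tags and lyses microbes, had 3 higher and 7 lower of 29 tested isogroups (34.5% called, close to the 30.8% of named isogroups, median -0.14). These include isogroup10610, whose name CO3 could also stand for cytochrome c oxidase subunit 3, and without it 3 were higher and 6 lower of 28. Complement C3, the central component, was split over several isogroups. The most abundant, isogroup6800, was not called, at 7428 to 11654 CPM (median 8939) in *H. carbonarium* and 5529 to 10335 CPM (median 7744) in *H. flavolineatum* (0.20 ± 0.15, adjusted p = 0.42), whereas isogroup750 had 154, 230.5 and 354 CPM in *H. carbonarium*, against 249.9, 543 and 869 CPM in *H. flavolineatum* (-1.23 ± 0.25, adjusted p = 0.000849). Over 13 isogroups named complement C3, isogroup750 among them, the sum was not called (-0.84 ± 0.24, adjusted p = 0.016). Isogroup16183, also named C3, was lower at a low level, 0 to 2.81 CPM (median 0.904) in *H. carbonarium* and 2.98 to 11.4 CPM (median 9.23) in *H. flavolineatum* (-2.78 ± 0.39, adjusted p = 1.32e-05), and isogroup10610, the one annotated as CO3, was at 0 to 2.80 CPM (median 0.278) in *H. carbonarium* and 4.72 to 37.3 CPM (median 19.98) in *H. flavolineatum* (-4.72 ± 0.54, adjusted p = 8.96e-07). Summed over 6 isogroups named complement component C3, the levels were 7485 to 11955 CPM (median 9274) in *H. carbonarium* and 5874 to 10780.5 CPM (median 8091) in *H. flavolineatum* (0.16 ± 0.15, adjusted p = 0.512). Complement factor H, the regulator that protects host cells, was lower without overlap (-3.0 ± 0.30, adjusted p = 8.74e-08).

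C1q-type proteins were called in both directions. Complement C1q protein 2 was higher in isogroup36119 (5.72 ± 0.61, adjusted p = 2.96e-07) and isogroup1989 (2.34 ± 0.46, adjusted p = 0.000707), and the sum of these isogroups was 53.3 to 249 CPM (median 77.1) in *H. carbonarium* and 2.85 to 23.3 CPM (median 7.06) in *H. flavolineatum* (3.42 ± 0.39, adjusted p = 1.04e-06). An isogroup named C1q protein, isogroup33206, was at 0 in *H. flavolineatum* 4, 6 and 16 and at 12.7 to 218 CPM in the other 8 *H. flavolineatum*, while the *H. carbonarium* had at most 1.12 CPM. Isogroup33866 of the same name was higher (2.85 ± 0.42, adjusted p = 3.12e-05), and the sum over this name was not called (-0.62 ± 0.66, adjusted p = 0.574).

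The pentraxins, plasma pattern-recognition proteins of the acute phase that the annotation spells pentaxin, were lower in 4 of 4 tested isogroups. Isogroup33149 had 19.6, 225 and 1164 CPM in *H. carbonarium*, against 775, 2481 and 5573 CPM in *H. flavolineatum* (-3.06 ± 0.56, adjusted p = 0.000358). *H. carbonarium* 7 was the highest of its species and lay within the range of *H. flavolineatum*. Isogroup15908 (-3.91 ± 0.76, adjusted p = 0.000678) and isogroup9029 (-4.06 ± 0.89, adjusted p = 0.00197) were lower too, and isogroup9029 had an adjusted p of 0.0107 without *H. carbonarium* 4 and 5 and *H. flavolineatum* 17. Over the name the sum was 21.2 to 1192 CPM (median 244) in *H. carbonarium* and 816 to 5970.4 CPM (median 3011) in *H. flavolineatum* (-3.11 ± 0.56, adjusted p = 0.000298). Lysozyme C, which cuts bacterial walls, was the 1 higher member of the antimicrobial and acute-phase list, at 1141 to 4584 CPM (median 2107) in *H. carbonarium* and 377 to 1936 CPM (median 1023) in *H. flavolineatum* (1.13 ± 0.29, adjusted p = 0.00779), out of 12 tested with 4 lower (41.7% called, against 30.8% of named isogroups, median -0.17). Without those 3 fish the list had 0 higher and 2 lower. The lysozyme call held in 7 of the 19 fits that each left out 1 fish and was lost under upper-quartile scaling and without *H. carbonarium* 5, 6, 7 or 8 or *H. flavolineatum* 4, 6, 7, 8, 11, 15, 16 or 17, each left out alone. Serum lectin isoform 3, a plasma sugar-binding protein, was the 1 DEG of 6 lectins (16.7% called, against 30.8% of named isogroups), at 0 to 11.3 CPM (median 2.74) in *H. carbonarium* and 312 to 1602 CPM (median 726) in *H. flavolineatum* (-7.70 ± 0.56, adjusted p = 8.32e-10), with ranges far apart. Summed over its name the log2 fold change was -5.95 ± 0.51, adjusted p = 9.61e-09, and without *H. carbonarium* 4 and 5 the list had 1 higher and 2 lower of 8.

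Chemokines and their receptors were higher in 2 and lower in 0 of 6 tested isogroups (33.3% called, near the 30.8% of named isogroups, median 0.48), and DESeq2 without a filter called 6 higher and 0 lower of 18. Interleukin-8, which attracts neutrophils, was higher (1.92 ± 0.29, adjusted p = 3.72e-05). C-C motif chemokine 4, which attracts monocytes and lymphocytes, had 13.7, 32.8 and 62.8 CPM in *H. carbonarium*, against 1.43, 7.94 and 19.6 CPM in *H. flavolineatum* (1.96 ± 0.39, adjusted p = 0.000911), and the highest *H. flavolineatum* exceeded the lowest *H. carbonarium*. Of 7 interferon-response isogroups 0 were DEGs (median -0.28), with 1 at an unadjusted p under 0.05 and with 3 higher and 1 lower of 36 by DESeq2 without a filter, the most abundant being gamma-interferon-inducible lysosomal thiol reductase, at 16.3 to 57.9 CPM (median 40.2) in *H. carbonarium* and 29.3 to 72.4 CPM (median 39.4) in *H. flavolineatum* (-0.17 ± 0.24, adjusted p = 0.688). Over all isogroups, 2181 of 6791 tested had an unadjusted p under 0.05, and DESeq2 without a filter called 2140 of 58532. Among NLRC3 and TRIM family proteins 2 of 6 were higher and 1 lower (50% called, against 30.8% of named isogroups), with zinc-binding protein A33 at 969 to 2378 CPM (median 1389) in *H. carbonarium* and 431 to 1072 CPM (median 740.0) in *H. flavolineatum* (1.0 ± 0.19, adjusted p = 0.000549), TRIM47 higher (1.18 ± 0.27, adjusted p = 0.00286) and TRIM39 lower (-1.26 ± 0.26, adjusted p = 0.00109).

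Lymphocyte and antigen presentation proteins were higher in 6 and lower in 3 of 22 tested isogroups (40.9% called, against 30.8% of named isogroups, median 0.25). Membrane-bound IgM, carried by B cells, was higher in both isogroups. The transmembrane form had 0, 21.4 and 71.1 CPM in *H. carbonarium*, against 0, 1.32 and 9.99 CPM in *H. flavolineatum* (3.54 ± 0.62, adjusted p = 0.000214), and the mu chain C region, isogroup7173, had 17.96, 64.4 and 132 CPM in *H. carbonarium*, against 10.99, 15.9 and 32.8 CPM in *H. flavolineatum* (1.76 ± 0.31, adjusted p = 0.000234). With all 17 *H. flavolineatum* in the fit their adjusted p became 0.0132 and 0.0241. The summed level of the list was 762 to 1432 CPM in *H. carbonarium* and 822 to 1748 CPM in *H. flavolineatum*. In whole liver, fewer cells of a type and less RNA per cell cannot be told apart. GTPase IMAP family member 4, expressed in lymphocytes, was lower in isogroup6011 (-3.21 ± 0.39, adjusted p = 2.29e-06) and isogroup7390 (-2.21 ± 0.55, adjusted p = 0.00566) and higher in isogroup25178 (1.78 ± 0.41, adjusted p = 0.0034), and the sum over the name was not called (-1.07 ± 0.30, adjusted p = 0.014).

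Plasma protease inhibitors and clotting proteins were higher in 6 and lower in 4 of 35 tested isogroups (28.6% called, near the 30.8% of named isogroups, median 0.19). All 35 were named in the study's list of called isogroups, where the share was 35.8%. Coagulation factor X, which activates prothrombin, had 49.9, 479 and 773 CPM in *H. carbonarium*, against 18.03, 27.6 and 57.5 CPM in *H. flavolineatum* in isogroup22201 (3.87 ± 0.42, adjusted p = 4.43e-07). *H. carbonarium* as a group lay far above *H. flavolineatum* there, with overlap at the lowest fish, and over 5 isogroups of that name the difference was smaller, at 1261 to 2143 CPM (median 1674) in *H. carbonarium* and 1008 to 1229 CPM (median 1113) in *H. flavolineatum* (0.61 ± 0.14, adjusted p = 0.00231). An isogroup named serine proteinase inhibitor, isogroup56848, had 0.653, 78.6 and 173 CPM in *H. carbonarium*, against 0, 2.22 and 6.30 CPM in *H. flavolineatum* (5.17 ± 0.60, adjusted p = 1.1e-06). Hyaluronan-binding protein 2, a plasma protease of clotting, was higher in isogroup338 (1.97 ± 0.45, adjusted p = 0.00278), while the sum of its 2 isogroups was not called (0.32 ± 0.22, adjusted p = 0.328). Kininogen, the precursor of kinins, was lower, at 118 to 1564 CPM (median 1058) in *H. carbonarium* and 1562 to 4052 CPM (median 2857) in *H. flavolineatum* (-1.43 ± 0.33, adjusted p = 0.00291). Vitronectin, an adhesive plasma protein, was lower (-0.75 ± 0.20, adjusted p = 0.00838) and fetuin-B higher (0.77 ± 0.16, adjusted p = 0.00134). The number lower was 2 without *H. flavolineatum* 4, 5, 8 or 15.

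Lipid carriers were above zero in 11 of 12 tested isogroups (median log2 fold change 0.85, against -0.01 over all tested isogroups), with 4 higher and 1 lower (41.7% called, against 30.8% of named isogroups). All 12 took their names from the study's list of called isogroups, where the share was 35.8%, not far from that of this list. Angiopoietin-related protein 3, a liver hormone that inhibits lipoprotein lipase, had 244, 400.5 and 1245 CPM in *H. carbonarium*, against 143, 196 and 315 CPM in *H. flavolineatum* (1.31 ± 0.26, adjusted p = 0.000912). *H. carbonarium* 8 was the highest, and the ranges overlapped. Apolipoprotein C-I, a small protein of lipoproteins, was higher, at 745 to 7609 CPM (median 5798) in *H. carbonarium* and 1777 to 3505 CPM (median 2164) in *H. flavolineatum* (1.10 ± 0.27, adjusted p = 0.00527). Lipoprotein lipase, which frees fatty acids from lipoproteins, had 9.66, 31.4 and 260.4 CPM in *H. carbonarium*, against 3.15, 17.1 and 32.8 CPM in *H. flavolineatum* (2.14 ± 0.54, adjusted p = 0.00639), with *H. carbonarium* 4 and 5 at 260.4 and 118 CPM. The number higher was 2 without *H. flavolineatum* 4 or 17, and ranged from 2 to 6 over the 19 fits that each left out 1 fish.

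Transporters and water channels were higher in 11 and lower in 4 of 29 tested isogroups (51.7% called, against 30.8% of named isogroups, median 0.62). Solute carrier family 22 member 5, a carnitine transporter, had 310 counts over the 8 *H. carbonarium* and 1 count over the 11 *H. flavolineatum*, a pooled ratio of 508-fold (95% counting interval 90.4 to 20109). Large neutral amino acids transporter small subunit 3 had 6.44, 15.6 and 31.97 CPM in *H. carbonarium*, against 1.43, 1.84 and 5.28 CPM in *H. flavolineatum* (2.61 ± 0.30, adjusted p = 1e-06), and solute carrier family 38 member 5b, a glutamine transporter, had 97.1, 146 and 172 CPM in *H. carbonarium*, against 28.3, 52.8 and 92.6 CPM in *H. flavolineatum* (1.25 ± 0.21, adjusted p = 0.00011). Neither of these overlapped between the species. Aquaporin-1, a water channel, was lower, with 12.9, 17.7 and 28.1 CPM in *H. carbonarium*, against 35.8, 56.2 and 94.2 CPM in *H. flavolineatum* (-1.58 ± 0.23, adjusted p = 2.36e-05), and every *H. flavolineatum* exceeded every *H. carbonarium*. The ammonium transporter Rh type B-B, at 11.9 to 73.5 CPM (median 26.7) in *H. carbonarium* and 1.78 to 22.6 CPM (median 6.22) in *H. flavolineatum*, was higher (1.98 ± 0.41, adjusted p = 0.00137). The drug exporter MDR1A was higher too (2.56 ± 0.56, adjusted p = 0.00198), with 97.2 and 93.9 CPM in *H. carbonarium* 4 and 5 and at most 20.0 CPM in the other 17 fish.

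Amino acid metabolism had 5 higher and 2 lower of 21 tested isogroups (33.3% called, near the background of named isogroups, median 0.18). 3-hydroxyanthranilate 3,4-dioxygenase, in the route that breaks down tryptophan, had 52.9, 65.1 and 158 CPM in *H. carbonarium*, against 148, 214 and 313 CPM in *H. flavolineatum* (-1.49 ± 0.23, adjusted p = 4.7e-05). A low isogroup of phenylalanine hydroxylase, which makes tyrosine, was lower, at 0 to 2.80 CPM (median 1.11) in *H. carbonarium* and 3.25 to 21.5 CPM (median 9.45) in *H. flavolineatum* (-3.02 ± 0.43, adjusted p = 1.75e-05). An asparaginase homolog was higher, at 6.07 to 33.9 CPM (median 18.8) in *H. carbonarium* and 1.57 to 8.66 CPM (median 3.97) in *H. flavolineatum* (2.18 ± 0.31, adjusted p = 1.81e-05), and so was cysteine dioxygenase, the first step toward taurine, at 202 to 648 CPM (median 362) in *H. carbonarium* and 79.5 to 330.4 CPM (median 105) in *H. flavolineatum* (1.35 ± 0.30, adjusted p = 0.00257). Without *H. carbonarium* 4 and 5 the numbers were 1 higher and 2 lower of 22, and there were 3 higher without *H. carbonarium* 1, 2, 3, 4, 5 or 7 or *H. flavolineatum* 2, 4, 5, 6, 8, 9, 11 or 15, each left out alone.

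Purine and pyrimidine metabolism had 1 DEG of 15 tested isogroups (6.67%, against 30.8% of named isogroups), with 12 of 15 above zero and a median of 0.60. The DEG, beta-ureidopropionase, the last enzyme of pyrimidine breakdown, was at 3152 CPM in *H. carbonarium* 4 and 809 CPM in *H. carbonarium* 5, at 63.7 to 206 CPM in the other 6 *H. carbonarium* and at 46.2 to 191 CPM in *H. flavolineatum* (2.57 ± 0.59, adjusted p = 0.00291). Without *H. carbonarium* 4 the log2 fold change was 1.22 (adjusted p = 0.0269), and without both fish it was 0.44 (adjusted p = 0.275).

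**Figure D4:**
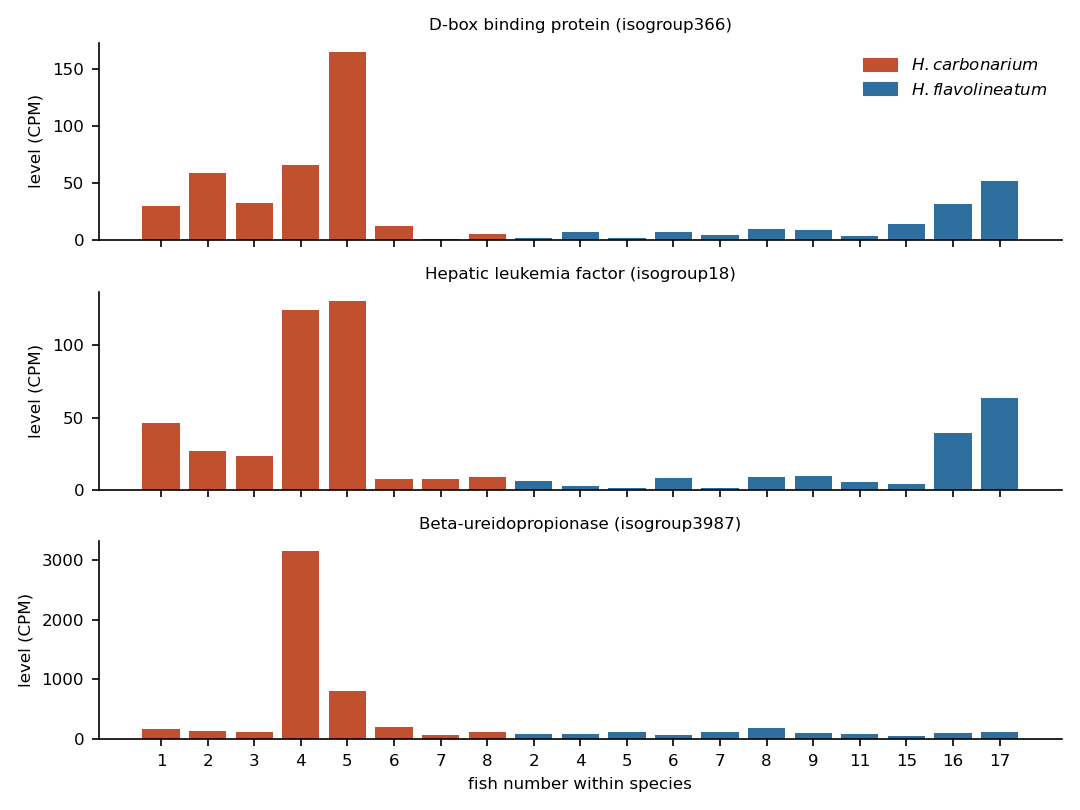
Level in CPM (vertical axis, from 0) of DBP, HLF and beta-ureidopropionase, a bar for each of 8 *H. carbonarium* left of 11 *H. flavolineatum* by fish number. *H. carbonarium* 4 and 5 are high in all 3 panels, up to 3152 CPM for beta-ureidopropionase.

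Clock output was represented by DBP, the D site of albumin promoter binding protein, and by hepatic leukemia factor (HLF), related transcription factors whose levels cycle over the day in vertebrate liver. DBP had 1.40, 31.5 and 165 CPM in *H. carbonarium*, against 1.84, 7.13 and 52.00 CPM in *H. flavolineatum* (1.91 ± 0.66, adjusted p = 0.0435) and HLF had 7.22, 25.1 and 131 CPM in *H. carbonarium*, against 1.23, 5.96 and 63.4 CPM in *H. flavolineatum* (1.89 ± 0.71, adjusted p = 0.061). Neither passed the threshold here or by DESeq2 without a filter, though 2 of 2 had an unadjusted p under 0.05, as had 2181 of all 6791 tested isogroups. DBP and HLF both passed the threshold in edgeR without a count filter (log2 fold change 1.93, adjusted p = 5.63e-08 for DBP and 1.91, adjusted p = 8.09e-08 for HLF), and HLF did with all 17 *H. flavolineatum* (2.27, adjusted p = 0.00546). Without the filter the fold changes stayed near those of the main fit and only the adjusted p fell. That fit kept 636 of the 817 DEGs. The median of the pair was 1.90, and 0.75 without *H. carbonarium* 4 and 5. Levels were high in *H. carbonarium* 4 and 5 and in *H. flavolineatum* 16 and 17, though not only in these fish. DBP in *H. carbonarium* 2 lay above *H. flavolineatum* 16 and 17, and HLF in *H. carbonarium* 1 lay above *H. flavolineatum* 16. The study's methods place all catches in the same daily window of 4 hours, over 2 days. The hour within that window at which each fish was taken was not in the labels, so its part in these levels was not tested.

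Growth and hormone signals had 2 higher and 1 lower of 10 tested isogroups (30% called, near the 30.8% of named isogroups, median 0.22). Androgen receptor had 4.02, 11.97 and 15.01 CPM in *H. carbonarium*, against 0, 0.745 and 6.50 CPM in *H. flavolineatum* (2.85 ± 0.51, adjusted p = 0.000295), and estradiol 17-beta-dehydrogenase 2, which inactivates estradiol and testosterone, had 4.05, 14.4 and 22.04 CPM in *H. carbonarium*, against 28.5, 46.8 and 85.3 CPM in *H. flavolineatum* (-1.86 ± 0.28, adjusted p = 4.29e-05). The dehydrogenase ranges did not overlap, and those of the receptor did at the lowest *H. carbonarium*. Insulin growth factor binding protein-2a, which holds insulin-like growth factors in plasma, was higher (1.68 ± 0.44, adjusted p = 0.0076), a call that held in 7 of the 19 fits that each left out 1 fish. Without *H. carbonarium* 4 and 5 the list had 1 higher and 1 lower.

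Test results of egg proteins are not given, since vitellogenin chose the *H. flavolineatum*. In the fit, 5 egg protein isogroups passed the count filter and are counted in the 6791, and 1 is counted in the 817. Summed over 12 isogroups the egg proteins came to 146, 200 and 1216 CPM in *H. carbonarium*, against 105, 173 and 4961 CPM in *H. flavolineatum* (lowest, median and highest fish). Choriogenin Ha, an egg envelope protein made in the liver, was at 996 CPM in *H. carbonarium* 1 and at most 104 CPM in the other *H. carbonarium*, and reached 1775 CPM in *H. flavolineatum*. Zona pellucida sperm-binding protein 3, another envelope protein, had 51.4, 88.7 and 106 CPM in *H. carbonarium*, against 11.4, 35.7 and 53.7 CPM in *H. flavolineatum*. The medians of choriogenin H, vitellogenin B and vitellogenin Aa were 33.1, 17.1 and 4.54 CPM in *H. carbonarium*, against 32.5, 17.8 and 5.77 CPM in *H. flavolineatum*.

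Several of the largest differences lay in proteins outside these lists. Ependymin, a secreted glycoprotein first known from fish brain, had 0, 0.683 and 3.92 CPM in *H. carbonarium*, against 59.6, 118 and 187 CPM in *H. flavolineatum* in isogroup31318 (-6.69 ± 0.43, adjusted p = 1.43e-10). Over its 3 isogroups ependymin had 91.0 to 181 CPM (median 135) in *H. carbonarium* and 215 to 519 CPM (median 287) in *H. flavolineatum* (-1.37 ± 0.22, adjusted p = 7.3e-05). Lymphocyte antigen 6D, a lipid-anchored surface protein, had 33.6, 69.2 and 169.8 CPM in *H. carbonarium*, against 329.7, 867 and 2309 CPM in *H. flavolineatum* (-3.62 ± 0.41, adjusted p = 7.19e-07), and summed with the other isogroups of its name its log2 fold change was -1.33 (adjusted p = 0.0115). Every *H. flavolineatum* exceeded every *H. carbonarium* in both single isogroups. Seizure related 6 homolog like had 2 counts over the *H. carbonarium* and 158 over the *H. flavolineatum*, a pooled ratio of 48.3-fold (95% counting interval 13.1 to 402). Collectrin, in mammals a partner of kidney amino acid transporters, was at 0 to 2.09 CPM (median 0) in *H. carbonarium* and 2.36 to 34.2 CPM (median 10.4) in *H. flavolineatum* (-4.40 ± 0.65, adjusted p = 3.05e-05).

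Trans-aconitate 3-methyltransferase separated 1 *H. carbonarium* from the rest. It was at 60.7 CPM in *H. carbonarium* 3, at most 2.22 CPM in the other 7 *H. carbonarium* and 73.1 to 214 CPM in *H. flavolineatum* (-3.99 ± 0.80, adjusted p = 0.000889). An isogroup named putative methyltransferase showed the same fish apart, with 15.2 CPM in *H. carbonarium* 3, at most 2.10 CPM in the other 7 and 26 to 62 CPM in *H. flavolineatum* (-3.60 ± 0.46, adjusted p = 3.92e-06). Phospholipase D1 (PLD1), which makes the signaling lipid phosphatidic acid, had 588 counts over the *H. carbonarium*, where fish 4 held 249.9 CPM and the others at most 48.6 CPM, and 1 count over the *H. flavolineatum*, a pooled ratio of 963-fold (95% counting interval 172 to 38085).

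**Figure D5:**
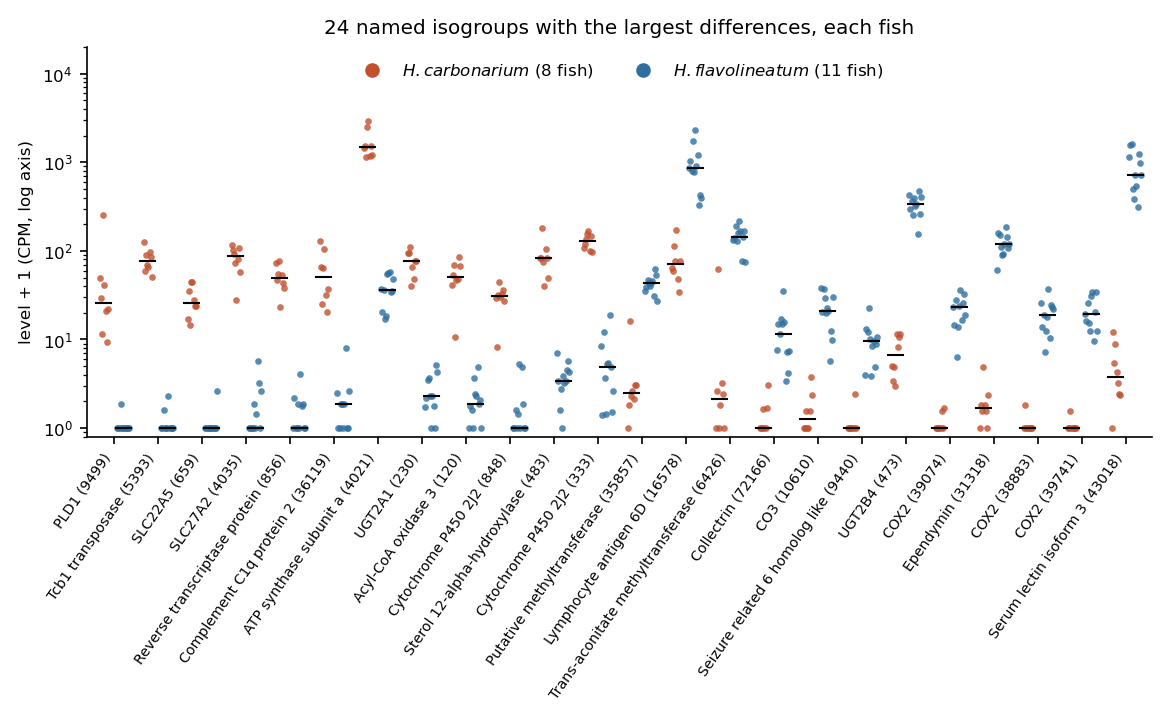
Level plus 1 in CPM (vertical log axis) per fish of the 24 named isogroups with the largest differences among those whose levels did not overlap, *H. carbonarium* left of *H. flavolineatum*, with a line at the median. The species are separated at every isogroup, as for ATP synthase subunit a (isogroup4021) at 1144 to 2928 CPM and 16.03 to 57.5 CPM.

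Mobile elements had 3 higher and 2 lower of 11 tested isogroups (45.5% called, against 30.8% of named isogroups, median 0.50). The transposase of the Tcb1 element had 49.5, 76.6 and 123.4 CPM in *H. carbonarium*, against 0, 0 and 1.33 CPM in *H. flavolineatum* (8.03 ± 0.45, adjusted p = 1.54e-11). An isogroup named reverse transcriptase, isogroup856, had 22.04, 49.1 and 75.04 CPM in *H. carbonarium*, against 0, 0 and 3.11 CPM in *H. flavolineatum* (5.84 ± 0.45, adjusted p = 2.2e-09), and isogroup3604, a non-LTR retrotransposon, was higher too (4.53 ± 0.43, adjusted p = 5.93e-08), with a smaller difference for the sum over that name (2.13 ± 0.25, adjusted p = 1.6e-06). In these 3 the ranges did not overlap, and reads of a repeated element can come from many copies. Summed over its name, reverse transcriptase differed by 1.49 on the log2 scale (adjusted p = 0.0396). Without *H. carbonarium* 4 and 5 the list had 4 higher and 1 lower of 12.

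Ribosomal and translation proteins had 2 higher and 2 lower of 28 tested isogroups (14.3% called, against 30.8% of named isogroups, median 0.06). The study's list of called isogroups named only 17 of the 28. Isogroups named only elsewhere had a share of 2.42%, so 30.8% is too high a comparator here. Mitochondrial ribosomal protein L15 was at 2.41 to 6.53 CPM (median 4.72) in *H. carbonarium* and 6.50 to 17.1 CPM (median 12.3) in *H. flavolineatum* (-1.44 ± 0.24, adjusted p = 0.000116). 60S acidic ribosomal protein P2 was higher (1.02 ± 0.23, adjusted p = 0.00273), with an adjusted p of 0.0183 without *H. carbonarium* 4 and 5, when the list had 0 higher and 1 lower of 31. Eukaryotic translation initiation factor 3 subunit M was lower (-0.57 ± 0.15, adjusted p = 0.0077), a call that held in 7 of the 19 fits that each left out 1 fish. Chaperones had 1 higher and 1 lower of 8 (25% called, under the 30.8% of named isogroups, median 0.16). The 10 kDa mitochondrial heat shock protein was lower without overlap, at 7.83 to 38.2 CPM (median 27.2) in *H. carbonarium* and 53.6 to 175 CPM (median 81.9) in *H. flavolineatum* (-1.82 ± 0.30, adjusted p = 0.000125), and protein disulfide-isomerase was higher (0.99 ± 0.26, adjusted p = 0.00793), which held in 5 of those 19 fits. Antioxidant and selenoproteins had 1 higher and 1 lower of 10 (20% called, under the 30.8% of named isogroups, median -0.08). Selenoprotein P, which carries selenium in plasma, had 3449.7, 5447 and 7131 CPM in *H. carbonarium*, against 6821, 9392 and 11216 CPM in *H. flavolineatum* (-0.77 ± 0.17, adjusted p = 0.0021), and glutathione peroxidase, which removes peroxides, was higher (1.08 ± 0.27, adjusted p = 0.00603), which held in 10 of those 19 fits and neither without *H. carbonarium* 4 and 5 nor for the sum over its name (0.89, adjusted p = 0.0102).

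The 10 most abundant named isogroups held both called and not called members, and 30.8% of all named isogroups were called. Apolipoprotein A-I, the main protein of high-density lipoproteins, had 24963, 31769 and 42543 CPM in *H. carbonarium*, against 15101, 20764 and 29597 CPM in *H. flavolineatum* (0.60 ± 0.16, adjusted p = 0.0109), and its adjusted p fell under 0.01 without *H. carbonarium* 2 or *H. flavolineatum* 6 or 16, over 30 fish (0.00324), with a minimum mean count of 10 (0.00993) and by DESeq2 without a filter (0.00135). Alpha-1-antitrypsin, the elastase inhibitor of plasma, was at 11561 to 41481 CPM (median 29861) in *H. carbonarium* and 14392 to 25924 CPM (median 19240.4) in *H. flavolineatum* (0.57 ± 0.20, adjusted p = 0.0468), with an adjusted p of 0.00433 without *H. carbonarium* 4 and of 0.000722 without *H. carbonarium* 4 and 5. An isogroup named RNAase was not called (0.50 ± 0.27, adjusted p = 0.222). Hemopexin, which binds heme, and betaine homocysteine methyltransferase, which remakes methionine, were not called either (-0.01 ± 0.18, adjusted p = 0.984 for the first and 0.18 ± 0.18, adjusted p = 0.543 for the second). A putative tributyltin (TBT) binding protein was higher, at 6271 to 26275 CPM (median 10051) in *H. carbonarium* and 2238 to 8636 CPM (median 5312) in *H. flavolineatum* (1.18 ± 0.27, adjusted p = 0.00273), with an adjusted p of 0.0101 without *H. carbonarium* 5 and of 0.0268 without *H. carbonarium* 4 and 5. Of 137 isogroups above 1000 CPM in either species, 29 were DEGs. Over all tested isogroups 817 of 6791 were (12%), and 343 of 1113 with a name (30.8%).

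Some strong differences had no protein name. Isogroup5571 had 13269, 23155 and 48861 CPM in *H. carbonarium*, against 1846, 2979 and 4123 CPM in *H. flavolineatum* (log2 fold change 3.14 ± 0.23, adjusted p = 7.07e-10), and every *H. carbonarium* lay above the highest *H. flavolineatum*. Isogroup32459 had 15.4, 106 and 224 CPM in *H. carbonarium*, against 536, 3092 and 5943 CPM in *H. flavolineatum* (log2 fold change -4.74 ± 0.58, adjusted p = 2.14e-06), with every *H. carbonarium* below the lowest *H. flavolineatum*. The isogroups lower in *H. carbonarium* with the smallest p were isogroup62353, with 1 count over the *H. carbonarium* and 834 over the *H. flavolineatum* (pooled ratio 509-fold, 95% counting interval 91.2 to 20145), and isogroup11595, with 2 counts over the *H. carbonarium* and 1070 over the *H. flavolineatum* (327-fold, 90.2 to 2702).

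Digestive enzymes of the exocrine pancreas had 3 higher and 0 lower of 8 tested isogroups (37.5% called, against 30.8% of named isogroups, median log2 fold change 1.38), with 6 higher and 0 lower at an unadjusted p under 0.05 and 5 higher and 2 lower of 13 by DESeq2 without a filter. Over all isogroups, 2181 of 6791 tested had an unadjusted p under 0.05, and DESeq2 without a filter called 2140 of 58532. In the pancreas list the direction was largely shared. The log2 fold change was above zero in 8 of 8, and without *H. carbonarium* 4 and 5 there were 1 higher and 1 lower of 10. Their summed level over 13 isogroups was 9861, 16707 and 63574 CPM in *H. carbonarium*, against 2302, 10237 and 17232 CPM in *H. flavolineatum*. *H. carbonarium* 1, 2, 4 and 8 exceeded the highest *H. flavolineatum*. In CPM without TMM scaling only 3 *H. carbonarium* did, and the medians were closer, at 15340 CPM in *H. carbonarium* and 12053 CPM in *H. flavolineatum*. The mean log2 level was higher by 1.26 (two-sided exact permutation test, p = 0.00501), and by 1.22 without *H. carbonarium* 4 and 5 (p = 0.0150). The study's own list of called isogroups named 7 of the 8 tested isogroups, and the pancreas list was written with earlier results of these data known. These p-values therefore do not rest on members chosen independently of the data.

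Trypsinogen, the precursor of trypsin, had 2844, 6617 and 21809 CPM in *H. carbonarium*, against 339, 2633 and 5169.6 CPM in *H. flavolineatum* (1.62 ± 0.43, adjusted p = 0.00905), and its call held in 6 of the 19 fits that each left out 1 fish. Elastase family member 2A had 2545, 3763 and 11255 CPM in *H. carbonarium*, against 565, 1585 and 3733 CPM in *H. flavolineatum* (1.49 ± 0.36, adjusted p = 0.00437), with an adjusted p of 0.0147 without *H. carbonarium* 1, and elastase family member 1 had 46.2, 106 and 861 CPM in *H. carbonarium*, against 6.30, 33.6 and 79.9 CPM in *H. flavolineatum* (2.60 ± 0.55, adjusted p = 0.00146), with an adjusted p of 0.0293 without *H. carbonarium* 4 and 5. Carboxypeptidase B was not called (1.27 ± 0.41, adjusted p = 0.031), but was without a count filter (1.16, adjusted p = 0.00157) and with all 17 *H. flavolineatum* (1.38, adjusted p = 0.00573). Muscle markers summed to 4.90 to 30.4 CPM in *H. carbonarium* and 6.5 to 25.7 CPM in *H. flavolineatum*, and the red blood cell marker to at most 4.83 CPM in *H. carbonarium* and 8.13 CPM in *H. flavolineatum*. The part of pancreatic tissue in the other differences was not tested.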

How the data were processed

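The authors filtered TagSeq reads for quality and duplicates (FastX Tool Kit), mapped those of each fish with Bowtie2, with up to 5 matches per read, to a liver transcriptome assembled de novo from *H. macrostomum*, and deposited raw counts for 58532 isogroups, with 1 library per fish. The versions of Bowtie2 and of their DESeq2 are not given in the sources used here. Reads that match several isogroups can be shared between near-identical genes, and a read that differs from the reference can be lost or fall on another isogroup.

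From these counts, 8 *H. carbonarium* were tested against 11 *H. flavolineatum* with edgeR 4.0.16 in R 4.3.3. Isogroups were kept by filterByExpr with species as groups and its defaults (a count of 10, a total of 15, a group called large from 10 and a proportion of 0.7). At least 8 fish, the size of the smaller group, had to clear the cutoff. This left 6791 isogroups holding 95.5% of the counts. Scaling was by TMM, species was the term of the quasi-likelihood model, and p-values were adjusted by Benjamini-Hochberg over all tested isogroups. DEGs had an adjusted p under 0.01. Standard errors were computed as the size of the change over the root of F. The fit covered only the species compared, and a fit over 30 fish of 3 species was an alternative. Summed pancreas levels were tested on log2 (CPM + 1) by an exact permutation test over 75582 splits. With 1 to 3 counts in a species, the ratio of pooled levels is given with an exact 95% interval, which covers counting error only. The fish of a species are separate wild animals.

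Protein names came from the study's list of called isogroups (948 tested isogroups) and from the parts of its UniProt (144) and TrEMBL (21) annotation at hand, so lists are described by counts and medians without a set test. The exception was the summed pancreas level, which was tested on members named in the same way. The fish compared, the 29 lists of names and the rule for isogroups named in the text were chosen with earlier results of these data known. The rule names the 12 highest and 12 lowest differences of named DEGs without overlap, the 3 DEGs with the smallest p in each list or its most abundant member, the 10 most abundant named isogroups, the clock and egg proteins, and the 2 isogroups with the smallest p in each direction. Other called list members, MDR1A, the non-called bile acid proteins and the abundant isogroups without a name were chosen after their values were seen. The study's columns of fold changes and p-values were not used.

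The fit was tested on simulated data. Alternatives were DESeq2 1.42.0 without a count filter before the fit but with its default filter on mean count, other scalings and filters, an adjusted p under 0.05, all 17 *H. flavolineatum*, the fit without *H. flavolineatum* 2 and 11, isogroups of a name summed, the fish number as a block and each fish left out. Leaving out *H. carbonarium* 4 and 5, with or without *H. flavolineatum* 17, was added after the data were seen. Figures were drawn with Python 3.11.15, scipy 1.17.1 and matplotlib 3.10.9.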

Additional observations from a re-analysis of the deposited data

Results flagged for a closer look

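Among 90 values checked in the 8 *H. carbonarium*, 24 had an extreme fish whose gap to the next was over 0.526 of the whole range. The 11 *H. flavolineatum* were too many for this check. By chance about 1 in 20 passes that cutoff if values are normally distributed. The gaps were taken on CPM without logarithms, and nearly all extremes were the highest fish, so that rate does not apply here. In 4 of the 24 the extreme was 1 or 2 reads in 1 fish with 0 in the others, which sets the gap by itself. These were isogroup39741 and isogroup38883 of cytochrome c oxidase subunit 2, seizure related 6 homolog like and isogroup62353. Fish 1 held 6 of the extremes, fish 4 held 5, fish 3 held 4, fish 6 held 1 and the others 2 each, and what lay behind them was not tested.

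*H. carbonarium* 1 was extreme in the summed pancreas markers (63574 CPM, next 32255), elastase family member 2A (11255 CPM), trypsinogen (21809 CPM), choriogenin Ha (996 CPM), pentraxin isogroup9029 (14.2 CPM) and apolipoprotein B-100 isogroup701 (60.7 CPM). *H. carbonarium* 4 was extreme in beta-ureidopropionase (3152 CPM), phospholipase D1 (249.9 CPM), 60S acidic ribosomal protein P2 (1783 CPM), elastase family member 1 (861 CPM) and ependymin (3.92 CPM). *H. carbonarium* 3 was extreme in trans-aconitate 3-methyltransferase (60.7 CPM), the putative methyltransferase (15.2 CPM), the sterol 12-alpha-hydroxylase (182 CPM) and cytochrome c oxidase subunit 2 isogroup39741 (0.562 CPM).

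The others were DBP (165 CPM) and hemopexin (15312 CPM) in *H. carbonarium* 5, pentraxin isogroup33149 (1164 CPM) and seizure related 6 homolog like (1.40 CPM) in fish 7, and angiopoietin-related protein 3 (1245 CPM) and collectrin (2.09 CPM) in fish 8. *H. carbonarium* 2 was lowest in CYP2J2 isogroup848 (7.24 CPM, next 26.5) and highest in cytochrome c oxidase subunit 2 isogroup38883 (0.805 CPM), and fish 6 was highest in the unnamed isogroup62353 (0.556 CPM).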

How the results depend on the processing

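The count of DEGs was 817. It was 2564 without a count filter (1635 higher and 929 lower in *H. carbonarium*), 2140 by DESeq2 without a filter and 1422 at an adjusted p under 0.05, and it stayed within 1.5 times of 817 under other scalings and filters, with all 17 *H. flavolineatum*, over 30 fish and without *H. flavolineatum* 2 and 11. Leaving out each fish in turn gave 691 to 848. Leaving out *H. carbonarium* 4 and 5, chosen after seeing the data, gave 825. Fish numbers do not pair the fish of the species, since same-numbered fish deviated together with r of -0.16 to 0.14 and in 0 of 6 cases was the best partner the same number. The fit with the fish number as a block gave 294 DEGs, 280 of them among the 817.

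Of 72 called isogroups named by rule, 64 were called in each fit without 1 fish in which they passed the count filter. Among these, seizure related 6 homolog like and mitochondrial ATP synthase subunit s passed the filter in only 11 of the 19 fits. The transmembrane form of IgM, the asparaginase homolog and the serine proteinase inhibitor isogroup56848 passed it in 18. Most of the 72 were chosen for a small p or a large change in these same fish, which favors their holding when 1 fish is left out. Under all alternatives in which they were tested, the fish number as a block included and summing aside, 45 of the 72 stayed called. Summing isogroups of a name changed the sign of apolipoprotein B-100 isogroup4685 to -0.19, cystatin isogroup3320 to -0.22 and complement component C3 isogroup16183 to 0.16 on the log2 scale. None of these sums was called by edgeR's quasi-likelihood test (adjusted p = 0.597, 0.319 and 0.512). The apolipoprotein B-100 and cystatin sums hold an isogroup called the other way. The C3 sum holds the far more abundant isogroup6800, which was not called. The pancreas difference ranged from 1.03 to 1.41 over the fits that each left out 1 fish, and the egg protein difference of median log2 levels, untested, from 0.16 to 0.26. Depth limits low isogroups, and 20 DEGs had at most 3 counts over all *H. carbonarium*, while 6 did over all *H. flavolineatum*. Names cover only part of the isogroups, so a protein missing from a list may have been measured without a name.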
